A study of Mus musculus with 3 samples.

Results

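Plet1-low Cd209a-low cells of the resting type 2 conventional dendritic cell (cDC2) gate made up 1675 of the 15434 cells kept after quality filtering from 3 droplet single-cell RNA libraries of mouse Peyer's patch phagocytes. They were chosen by their own UMI counts, a UMI (unique molecular identifier) standing for 1 captured transcript. Per 10000 UMIs, a member had under 40 for the sum of Lyz1, C1qa, C1qb and C1qc, which mark lysozyme-making phagocytes and macrophages. It had under 15 for Ccr7 and Fscn1, which mark mature dendritic cells, under 8 for Naaa, Xcr1 and Clec9a, which mark cDC1, and at least 40 for the MHC class II chain H2-Ab1. In raw counts it had under 4 UMIs of Mki67, Top2a, Birc5 and Ube2c, which mark dividing cells, and under 3 each of the B-cell gene Cd79a, the plasmacytoid gene Siglech, the lectin gene Cd209a, and the sum of Plet1, Hpgd and Mmp12. The levels of these genes are given only as a description of the choice, and no test rests on them.

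The R848 library came from 12 female C57BL/6Rj mice given 10 µg of R848, a TLR7 agonist, into the peritoneum 9 h earlier. The CpG library came from 12 such mice given 125 µg of CpG, a TLR9 agonist, by the same route and for the same time. The Control library came from 12 untreated mice, with no injection named in its labels. CD11c+ cells were enriched with magnetic beads and then sorted by surface staining as cDC1, cDC2, lysozyme-making dendritic cells (LysoDC) and macrophages. With 1 library per group, the agonist cannot be told apart from differences between pools of mice, injections or libraries, and no test was run. All intervals below are at 95% and cover counting error only.

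Conventional dendritic cells take up antigen in tissue and show it to T cells. The cDC2 lineage carries SIRPα and mainly primes CD4+ T cells, and in Peyer's patches it lies close to the lymphoid follicles and the overlying epithelium. TLR7 senses single-stranded RNA and TLR9 senses unmethylated CpG DNA in endosomes. Both can lead to type I interferon, which switches on antiviral genes.

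The libraries held 46556726 UMIs (R848), 43767864 (CpG) and 43537067 (Control), and 5107, 5023 and 5304 of their cells were kept. Between 33 and 42 cell barcodes were shared by each pair of libraries, none of them with equal totals, and 1 member barcode was shared. Members were 253 of the kept R848 cells, or 4.95% (4.37 to 5.59), 238 of the kept CpG cells, or 4.74% (4.17 to 5.36), and 1184 of the kept Control cells, or 22.3% (21.2 to 23.5). Over the same libraries, Ccr7- or Fscn1-high cells were 44.0% with R848, 58.6% with CpG and 6.52% in Control. These shares depend on the sort, on the limit for Ccr7 and Fscn1, and on how many cells of each sorted type were loaded, none of which was tested. Within the resting cDC2 gate, where only Cd209a, Plet1, Hpgd and Mmp12 separate the cells, members were 48.2% of 525 R848 cells (43.8 to 52.6), 45.1% of 528 CpG cells (40.8 to 49.4) and 55.5% of 2132 Control cells (53.4 to 57.7). The member share of the gate therefore varied far less between libraries than the member share of all cells.

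The limits cut through continuous ranges. In the gate, 32 R848, 27 CpG and 191 Control cells had 2 UMIs of Plet1, Hpgd and Mmp12, just inside the limit, and 25, 30 and 133 cells had 3, just outside it. At the Cd209a limit, 11 R848, 0 CpG and 60 Control cells had 2 UMIs, and 4, 1 and 39 cells had 3. No UMI of any of these 4 genes was found in 187 R848, 172 CpG and 714 Control members. The median member held 6714 UMIs with R848, 7214 with CpG and 5466.5 in Control, and the median cell with 3 or more UMIs of the Plet1 group held 8382.5, 9605 and 7137.5, so that shallow cells pass the raw limits more easily. As chosen, Plet1 stood at 51.7 (R848), 49.95 (CpG) and 69.9 CPM (Control) in members and at 1185, 1201 and 929 CPM in the cells above its limit, and Cd209a stood at 19.3 CPM in Control members and 943 CPM in Control cells above its limit.

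The pooled members carried the genes of conventional dendritic cells. All 9 genes of a list of such markers reached 20 CPM (counts per 1000000 UMIs of the class) in each library, among them the growth factor receptor gene Flt3 at 149 CPM with R848, 146 with CpG and 160.1 in Control, and the lineage factor gene Zbtb46 at 27.6, 27.8 and 32.0 CPM. Of 15 cDC2 markers, 8 reached 20 CPM with R848 and 10 each with CpG and in Control, led by S100a4 at 1261, 1539 and 1188 CPM. Of 11 cDC1 markers, 6, 6 and 7 reached it, led by Batf3 at 305, 317 and 220.5 CPM. Sirpa stood at 80.5, 76.6 and 93.3 CPM, while Itgam, which encodes CD11b, stood at 4.11, 14.8 and 8.92 CPM. Markers of T and B cells were nearly missing: 0 of 10 T-cell genes and 0 of 9 B-cell genes reached 20 CPM in any library. Of 12 natural killer genes, Klrk1 alone reached it, and Ncr1 had no UMI. Of 12 markers of type 3 innate lymphoid cells, 4 reached it in each library (Tmem176a, Tmem176b, Il7r and Kit), the list summing to 658 CPM with R848, 1157 with CpG and 755 in Control, while Il23r had no UMI. Without the cells holding a lymphocyte UMI, members were 3.35% of the kept R848 cells, 3.11% of the kept CpG cells and 17.6% of the kept Control cells. Markers of other cell types in the sort were present. Macrophage and LysoDC genes summed to 4993 CPM with R848, 4284 with CpG and 7699.6 in Control, led by Lyz2, and mature dendritic cell genes to 4298, 3439 and 1859.97 CPM. The choice of cells itself limited Cd79a of the B-cell list, and Naaa, Xcr1 and Clec9a of the cDC1 list. It also limited Lyz1 and the C1q genes of the macrophage list, and Ccr7 and Fscn1 of the mature list. Low counts and sums on these lists are thus partly set by the choice and are no test of identity. The choice also asked for H2-Ab1, and the conventional dendritic cell list holds other MHC class II genes such as H2-Aa and H2-Eb1. The count on that list is therefore no test of identity either. The receptor genes themselves were scarce, Tlr7 at 1.76, 0.568 and 0.731 CPM and Tlr9 at 1.17, 1.14 and 0 CPM (up to 0.439 by a limit of 3 counts).

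The 5 genes proposed as marks of these cells did not behave alike. Cd7, a receptor gene best known from lymphocytes (chromosome 11, 121036747 to 121039418, GRCm38), stood at 215 CPM in R848 members (194 to 238), 139 in CpG members (122 to 158) and 220.4 in Control members (209 to 232). In the cells of the same gate with 3 or more UMIs of the Plet1 group and under 3 of Cd209a, called Plet1-group-high cells here, it stood at 52.0, 25.6 and 42.9 CPM. Cd7 was thus 4.14-fold (3.35 to 5.14), 5.43-fold (4.16 to 7.15) and 5.13-fold (4.48 to 5.91) higher in members. The other 4 genes were less different. Ltb, a chain of lymphotoxin that lymphoid organ development relies on, was 1.75-fold, 1.29-fold and 1.55-fold higher. Klrd1, which encodes the CD94 receptor chain, was 1.64-fold, 1.77-fold and 1.64-fold higher. Pglyrp1, a peptidoglycan-binding protein gene, was 1.85-fold, 1.88-fold and 1.37-fold higher, and Ccr6, the receptor for CCL20, was 2.29-fold, 1.66-fold and 1.38-fold higher.

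**Figure D1:**
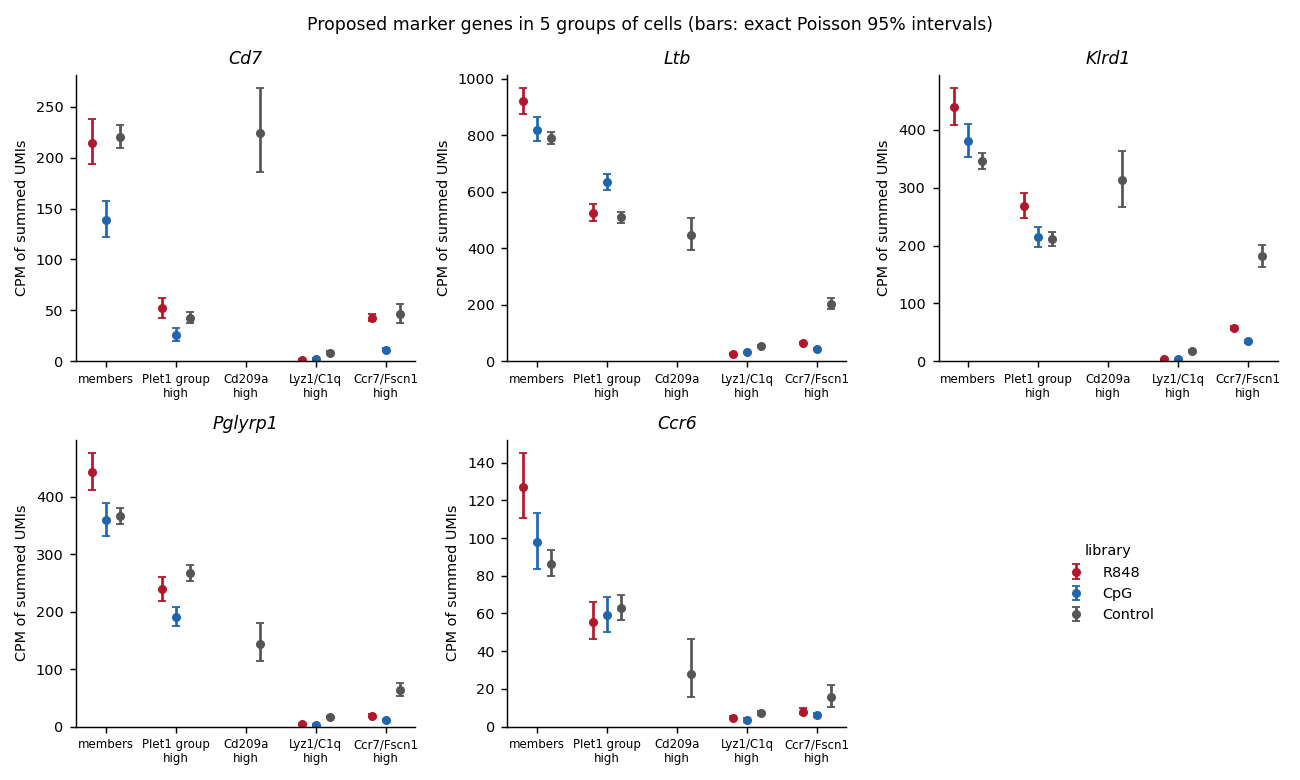
Level of the 5 proposed marker genes, in CPM of the UMIs summed over a class (vertical axes start at 0), in members and 4 other classes of the R848, CpG and Control libraries; points are 1 library each and bars are exact Poisson 95% intervals. Cd7 separates members (139 to 220.4 CPM) from Plet1-group-high cells (25.6 to 52.0 CPM) in every library, while Control Cd209a-high cells lie at 224 CPM.

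Against the 86 Control cells with 3 or more UMIs of Cd209a and under 3 of the Plet1 group, the order changed. Cd7 stood at 220.4 CPM in members and 224 (186 to 268) in Cd209a-high cells, and Klrd1 at 346 and 312 CPM, so neither set the members apart from these cells. Pglyrp1 was 2.54-fold (2.03 to 3.23) and Ccr6 3.08-fold (1.85 to 5.54) higher in members, and Ltb 1.77-fold (1.55 to 2.02). The R848 and CpG libraries held 2 and 1 Cd209a-high cells, too few for a profile. With every cell thinned to 2000 UMIs, 60.1% of R848 members, 55.0% of CpG members and 60.3% of Control members had UMIs of at least 2 of the 5 genes, against 39.5%, 43.6% and 40.3% of Plet1-group-high cells and 0.644%, 1.05% and 2.90% of lysozyme- or C1q-high phagocytes. The markers were thus more often seen together in members than in their neighbours, but not in every member.

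The members were not 1 uniform group. Clustered by library, they fell into 4 R848, 5 CpG and 8 Control clusters, and the genes below describe those clusters and are no test. A cluster led by Cdh17, an adhesion gene, and Klrb1f, a killer-lectin gene, came back in each library: cluster 1 with R848 (74 cells), cluster 1 with CpG (77 cells) and cluster 3 in Control (197 cells). The R848 and CpG clusters shared 11 of 20 leading genes, the CpG and Control clusters 7, and the R848 and Control clusters 6. Ltb stood at 1345, 1352 and 1203 CPM in these 3 clusters, Klrd1 at 812, 656 and 598 CPM, Pglyrp1 at 766, 697 and 633 CPM, and Lyz2 at 599, 585 and 1615 CPM. They carried the proposed markers at high levels and little Lyz2.

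Other clusters looked different. Lyz2 was highest in R848 cluster 2, CpG cluster 2 and Control cluster 1, at 10076, 6786 and 11620.2 CPM, and Cd7 there was at 47.2, 56.8 and 81.7 CPM. The first leading gene of these 3 clusters differed, S100a8 with R848, Il12b with CpG and Ccl6 in Control, and the Il12b UMIs came mostly from 1 cell. R848 cluster 2 shared 6 of 20 leading genes with Control cluster 1 and 5 with CpG cluster 2. CpG cluster 2 shared 2 with Control cluster 1. Whether these clusters are 1 kind of cell was not tested, and they are not taken as such. Control cluster 6 (77 cells, median 4179 UMIs) carried the cDC1 genes Xcr1 at 189.8 CPM and Irf8 at 1363 CPM, with Sirpa at 12.3 CPM, Cd7 at 9.86 CPM and no Ccr6 UMI, and these values go against the cDC2 name for that cluster. R848 cluster 4 (50 cells) also held Xcr1, at 62.4 CPM, and the chemokine gene Ccl22 at 475 CPM. Control cluster 8 (26 cells, median 10704 UMIs) held 111 of the 112 Pigr UMIs of all Control members, with Ltb at 2922 CPM, Cd7 at 412 CPM and Klrd1 at 7.17 CPM. CpG cluster 5 (14 cells) was led by Mcm genes of the DNA replication helicase, and Control cluster 7 (55 cells) held them among its leading genes. Control cluster 5 (122 cells, or 10.3% of Control members) was led by the mitotic genes Ccnb2 and Ube2c, the latter limited by the rule. They stood at 54.1 and 42.4 CPM there. Protein-folding genes were also among its leading genes, such as Hspa5 at 1067 CPM against 335 CPM in the other Control members. Whether these cells were dividing was not tested. Ccr7 was not evenly spread either: R848 cluster 4 held 51.3% and Control cluster 2 held 61.0% of the members' Ccr7 UMIs in their libraries. CpG cluster 3 was led by interferon-stimulated genes such as Rsad2, and CpG cluster 4 by Clec4a1 and the chemokine gene Ccl3. At least 2 markers of a macrophage, mature dendritic cell, cDC1 or proliferating list stood among the 10 leading genes of R848 clusters 2 and 4 (74 and 50 cells) and of Control clusters 2, 5, 6 and 7 (213, 122, 77 and 55 cells). Outside them were 129 R848 and 717 Control members. The pooled sums thus mix cells to which the name resting cDC2 was not shown to apply. Values without these clusters are given below for some of the results that moved, not for all.

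**Figure D2:**
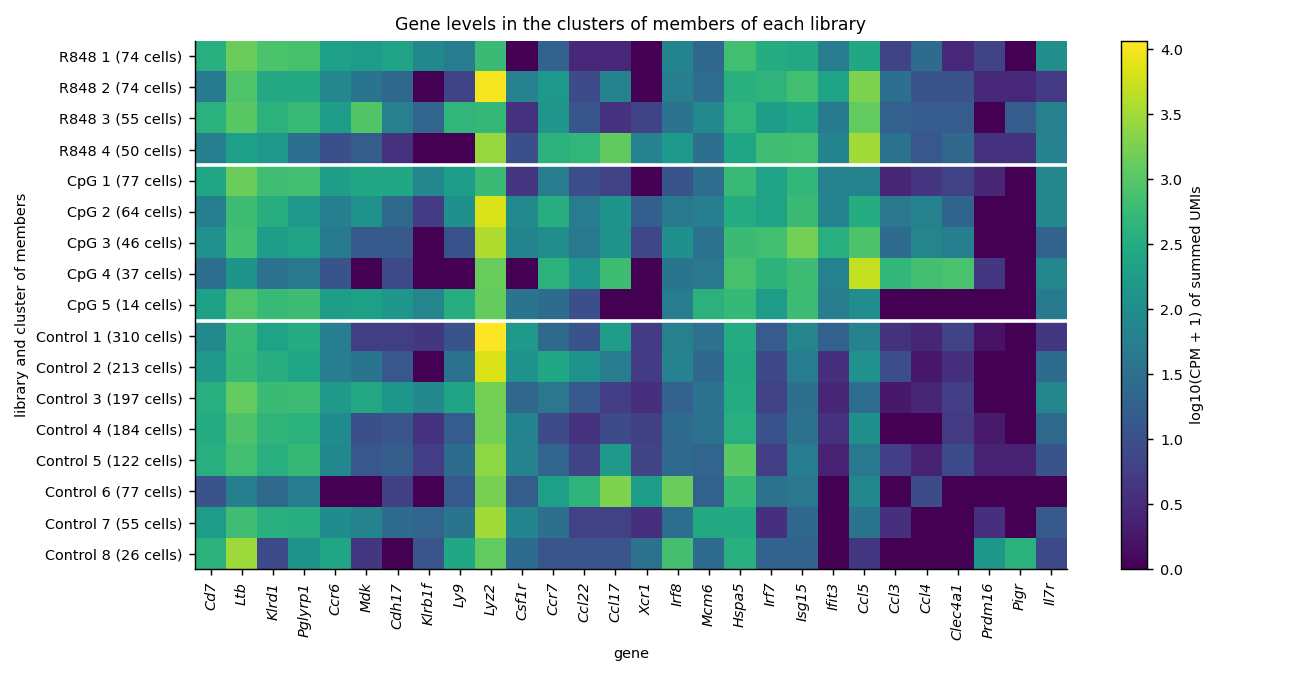
Levels of marker and other genes (columns) as log10 of CPM with 1 added (colour) in each cluster of members (lines), for the R848, CpG and Control libraries from top to bottom, with the cell number of each cluster. R848 cluster 1, CpG cluster 1 and Control cluster 3 carry Cd7 between 257 and 371 CPM with Cdh17 and Klrb1f, and Control cluster 6 carries Irf8 at 1363 CPM.

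Against Plet1-group-high cells of the same library, members had higher levels of 22 genes that recurred in all 3 libraries, among them Mdk, Ly9 and Cd7, and lower levels of 19 others, among them Lyz2, Il22ra2 and Trem1. A gene is called higher or lower here where log2 of CPM with 5 added differed by at least 2-fold, the higher class reached 20 CPM and 20 UMIs, and the interval of the ratio left out 1. Called higher were 146 of 5076 genes with R848 (2.88%), 134 of 5110 with CpG (2.62%) and 45 of 4642 in Control (0.969%). Called lower were 83 genes with R848 (1.64%), 78 with CpG (1.53%) and 31 in Control (0.668%). With median-of-ratios scaling the counts were 109 higher and 101 lower with R848, 93 and 102 with CpG, and 37 and 40 in Control, so that higher calls no longer led in CpG and Control. In all 3 libraries 22 genes were called higher, which is 15.1%, 16.4% and 48.9% of the R848, CpG and Control lists, and 19 genes lower, which is 22.9%, 24.4% and 61.3%.

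Mdk, the gene of the heparin-binding growth factor midkine, stood at 251 CPM in members and 8.88 in Plet1-group-high cells with R848, at 135 and 5.26 CPM with CpG, and at 60.3 and 4.12 CPM in Control. On the log2 scale with 5 CPM added it was higher by 4.20, 3.76 and 2.84. It lay mostly in 1 cluster of each library, with 74.0% of its UMIs in R848 cluster 3, 65.0% in CpG cluster 1 and 76.9% in Control cluster 3. R848 cluster 3 shared 1 of 20 leading genes with CpG cluster 1 and 2, Mdk and Ly9, with Control cluster 3. It was led by Clic3, with Mcm7 among its leading genes, and is not taken as their counterpart. Ly9, a SLAM-family receptor gene, was higher by 3.72, 4.14 and 2.41 on the same scale, at 113 and 4.00 CPM with R848, 114 and 1.75 CPM with CpG, and 65.5 and 8.23 CPM in Control. The same clusters held 85.5%, 54.7% and 58.9% of its UMIs. The paired membrane genes Tmem176b and Tmem176a were higher by 2.45 and 1.77 with R848, 2.90 and 2.76 with CpG, and 1.26 and 1.31 in Control. Tbc1d4, a regulator of glucose transporter traffic, was higher by 2.44, 2.70 and 1.54, and Il7r, the IL-7 receptor chain gene, by 1.66, 1.56 and 1.18. Fabp5, a fatty-acid-binding protein gene, was higher by 1.73, 1.52 and 1.22. These genes were taken from those called higher in all 3 libraries, so their shared direction was set by that choice. The treated libraries showed the wider gap for Mdk, Ly9, Tmem176b, Tbc1d4 and Fabp5, a difference that was not tested.

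Among the 19 genes called lower in all 3 libraries were a lysozyme, a decoy receptor and several membrane receptors. Lyz2, the lysozyme gene of phagocytes, stood at 3833 CPM in members and 12661 in Plet1-group-high cells with R848, at 2943 and 12947 CPM with CpG, and at 5216 and 14720.2 CPM in Control. The Control call for Lyz2 ended when cells were thinned to 3000 UMIs before the rule, at -0.90 on the log2 scale in place of -1.50. Il22ra2, the soluble decoy receptor for IL-22, stood at 135 and 645 CPM with R848, 271 and 1036 CPM with CpG, and 367 and 1004 CPM in Control. Qpct, a glutaminyl cyclase gene, differed by -2.51 (R848), -2.60 (CpG) and -1.80 (Control) on the log2 scale. Clec5a, a DAP12-coupled lectin gene, differed by -2.08, -2.17 and -1.25, Pilra, an inhibitory receptor gene, by -1.53, -1.58 and -1.43, and Trem1, an amplifier of myeloid activation, by -1.87, -1.80 and -1.36. The integrin partners split: Itgb7, the β7 chain, was higher by 1.03, 1.28 and 1.45, while Itgae, the αE chain, differed by -2.02, -1.74 and -1.06.

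**Figure D3:**
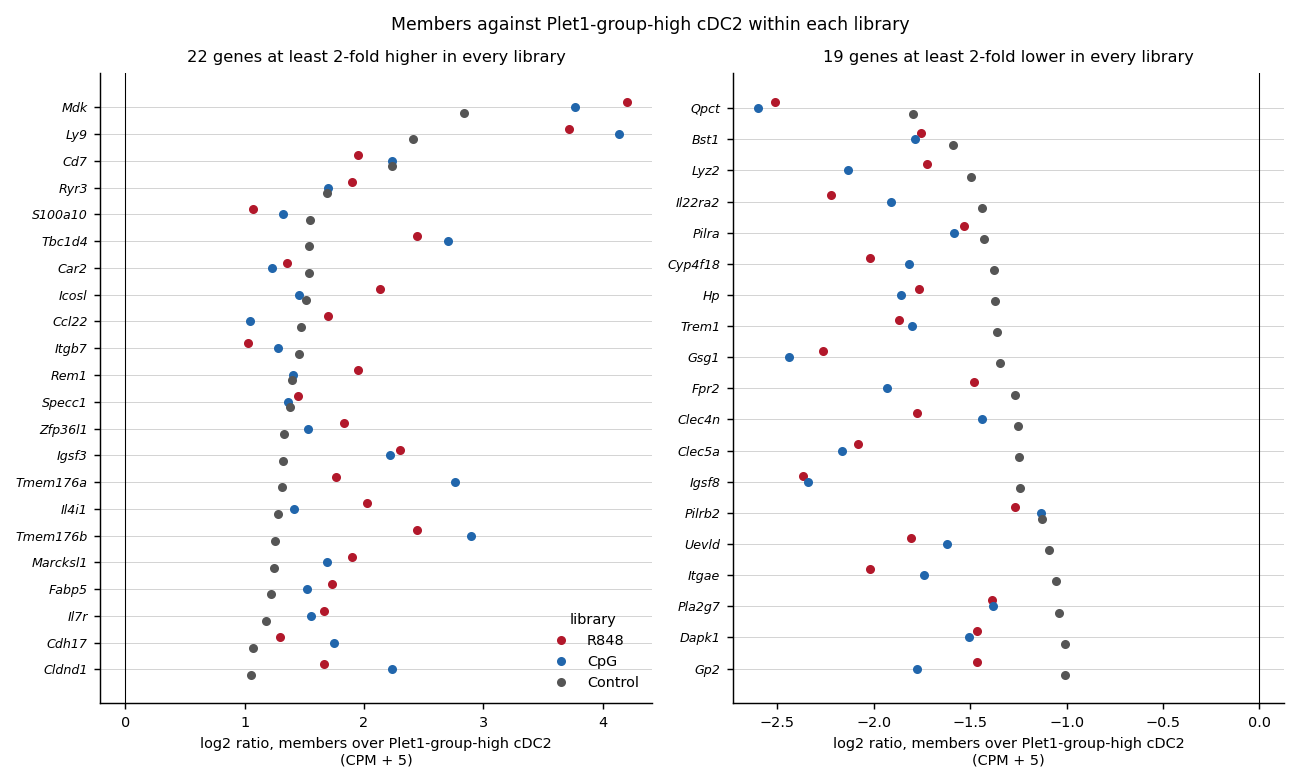
Ratio of members to Plet1-group-high cells, as log2 of CPM with 5 added, for the 22 genes called higher (left) and the 19 called lower (right) in every library, with a point each for R848, CpG and Control. Mdk and Ly9 reach farthest on the higher side (2.41 to 4.20) and Qpct reaches -2.60 on the lower side.

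Genes of dendritic cell maturation leaned towards the pooled members even though Ccr7 and Fscn1 had been limited. With R848, 9 of 25 measured genes of the maturation list were called higher and 0 lower, with a median of 0.86 on the log2 scale against 0.08 over all 5076 genes. With CpG it was 6 of 22, with a median of 0.72 against 0.11, and in Control 3 of 23 (Il4i1, Ccl22 and Marcksl1), with a median of 0.38 against 0.08. Il4i1, a secreted amino acid oxidase gene, stood at 451 CPM in members and 107 in Plet1-group-high cells with R848, 354 and 129.9 CPM with CpG, and 219 and 87.0 CPM in Control. These genes were not evenly spread over the members. R848 cluster 4 carried Ccl22 at 475 CPM against 6.59 CPM in the other R848 members. Control cluster 2 carried Il4i1 at 522 CPM against 154 CPM in the other Control members. The list counts without these clusters are not given. Ccr7 itself stood at 156 CPM in R848 members, 191 in CpG members and 76.9 in Control members. In the list of killer-cell lectin and paired receptors, 4 of 23 were higher and 2 lower with R848, 5 of 24 higher and 1 lower with CpG, and 2 of 20 higher (Cd7 and Ly9) and 1 lower (Pilra) in Control. In the interferon-stimulated list 1 of 42 was higher (Ifit3) and 1 lower (Ifitm3) with R848, 1 of 45 was higher with CpG (Ly6a), and 1 of 17 was higher in Control (Phf11b), a call that ended with median-of-ratios scaling. Each of these counts is 1 gene, beside the 2.88%, 2.62% and 0.969% of all genes called higher.

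Against Cd209a-high cells, which can be compared in Control alone, 110 of 4152 genes were called higher in members (2.65%) and 60 lower (1.45%). Ifitm1, an interferon-induced membrane protein gene, stood at 985 CPM in members and 135 in Cd209a-high cells, 7.31-fold (5.80 to 9.36) higher. The antioxidant cystine transporter gene Slc7a11 stood at 57.2 and 7.48 CPM, Mdk at 60.3 and 9.35 CPM, and Fabp5 at 523 and 118 CPM. Control cluster 2 carried Slc7a11 at 212 CPM against 24.1 CPM in the other Control members. Fabp5 stood there at 1341 against 347 CPM, and Ifitm1 at 2553 against 649 CPM. Without the clusters led by markers of another cell type, the log2 difference was 1.35 for Slc7a11 in place of 2.32. It was 1.58 for Fabp5 in place of 2.10, and 2.35 for Ifitm1 in place of 2.83. For Mdk it was 2.58 in place of 2.18. Lztfl1, Mreg, Pxdc1, Dapk2 and Il1rn completed the 10 highest, at 52.1 to 127 CPM in members and 9.35 to 22.4 CPM in Cd209a-high cells. Il1rn encodes the IL-1 receptor antagonist, and Dapk2 a kinase of cell death pathways. Of 8 measured receptors that place cells in tissue, 3 were higher in members (Ccr6, Ccr9 and P2ry10), 1 was lower (Ccr2) and 4 were not called. Ccr9, the receptor for the gut chemokine CCL25, stood at 139 CPM in members and 29.9 in Cd209a-high cells, 4.65-fold (2.85 to 8.17) higher. Ccr2, the receptor that draws monocytes, was 4.38-fold lower.

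Lectin genes separated members from Cd209a-high cells as a group. Of 9 measured C-type lectin genes, 6 were lower in members (Clec4a2, Clec4b1, Clec4n, Clec10a, Mgl2 and Cd209b) and 1 was higher (Clec5a), with a median log2 difference of -1.40 against 0.13 over all genes. Mgl2 and Clec10a, galactose-type lectin genes, stood at 41.4 and 202 CPM and at 22.4 and 120 CPM. Cd209b neighbours Cd209a in sequence and in the genome, so reads between them may be split, and Cd209a was used to choose the cells. Runx1, a transcription factor gene of blood cells, stood at 22.8 CPM in members and 200.2 in Cd209a-high cells, the largest lower call by log2 at -2.88, while Runx3, its paralogue, was 2.18-fold (1.82 to 2.62) higher. Irf8 was 3.27-fold (2.18 to 5.12) higher, and cluster 6, with its cDC1 genes, held 55% of the Irf8 UMIs of Control members. The chemokine gene Cxcl2 stood at 6.00 and 50.5 CPM. Apol10b, Gp2, Wfdc17 and Qpct completed the 8 lowest, at 8.19 to 52.5 CPM in members and 54.2 to 223 CPM in Cd209a-high cells. Values for Cd209a-high cells rest on 534573 UMIs of 86 cells.

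With both agonists, genes of the type I interferon response were higher in members than in Control members. In the R848 library 141 of 5007 genes were called higher (2.82%) and 52 lower (1.04%), and in the CpG library 190 of 5051 higher (3.76%) and 55 lower (1.09%). Both comparisons use the same Control library. In a sum over cells, more cells with a transcript and more of it per cell cannot be told apart. The median over all genes lay at 0.17 (R848) and 0.18 (CpG) on the log2 scale, and with median-of-ratios scaling, which brought it to -0.03 and -0.02, the counts were 92 higher and 75 lower with R848 and 140 higher and 95 lower with CpG. Without the clusters led by markers of another cell type the counts were 195 higher and 112 lower with R848. Of the measured interferon-stimulated genes 36 of 42 were higher and 0 lower with R848, with a median of 1.60, and 42 of 44 higher and 0 lower with CpG, with a median of 2.0. With median-of-ratios scaling 28 and 38 were higher and 0 lower.

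Irf7, the transcription factor gene that amplifies interferon production, stood at 401 CPM with R848 (372 to 432), 334 with CpG (308 to 362) and 10.1 in Control (7.85 to 12.8), which is 39.8-fold (31.0 to 51.7) and 33.1-fold (25.8 to 43.2) higher. Every member cluster of the treated libraries lay above every Control cluster for Irf7, at 192 to 668 CPM with R848, 176 to 685 CPM with CpG and 2.56 to 32.0 CPM in Control. Isg15, a ubiquitin-like modifier gene, stood at 475, 752 and 45.9 CPM, with member clusters at 249 to 685, 496 to 1619 and 17.9 to 69.9 CPM, so that its cluster ranges did not overlap with Control either. Thinned to 2000 UMIs, 42.7% of R848 members, 37.0% of CpG members and 2.36% of Control members had an Irf7 UMI.

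Ifit3 and Ifit1, which encode proteins that bind viral RNA, stood at 107, 117 and 5.56 CPM and at 82.8, 97.6 and 6.58 CPM in R848, CpG and Control members. Rtp4, an interferon-induced chaperone gene, stood at 159, 224 and 9.65 CPM, Oasl2, of the oligoadenylate synthetase family, at 79.9, 127 and 5.41 CPM, and Zbp1, a nucleic acid sensor gene, at 117, 229.9 and 11.1 CPM. All 5 genes were called higher with both agonists. Part of the R848 difference lay in clusters led by markers of another cell type, R848 cluster 2 carrying Ifit1 at 199 CPM against 33.5 CPM in the other R848 members. Without those clusters the log2 difference between R848 and Control was 1.46 for Ifit1 in place of 2.92, 2.03 for Ifit3 in place of 3.41, 2.02 for Oasl2 in place of 3.03, 2.41 for Isg15 in place of 3.24 and 4.14 for Irf7 in place of 4.75. The number of interferon-stimulated genes called higher was then 25 with R848 and 42 with CpG. That alternative left 129 R848 members, without cluster 2, but all 238 CpG members. CpG cluster 3, led by interferon-stimulated genes, was among those kept. The R848 and CpG counts are thus not on a like footing and are not compared.

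**Figure D4:**
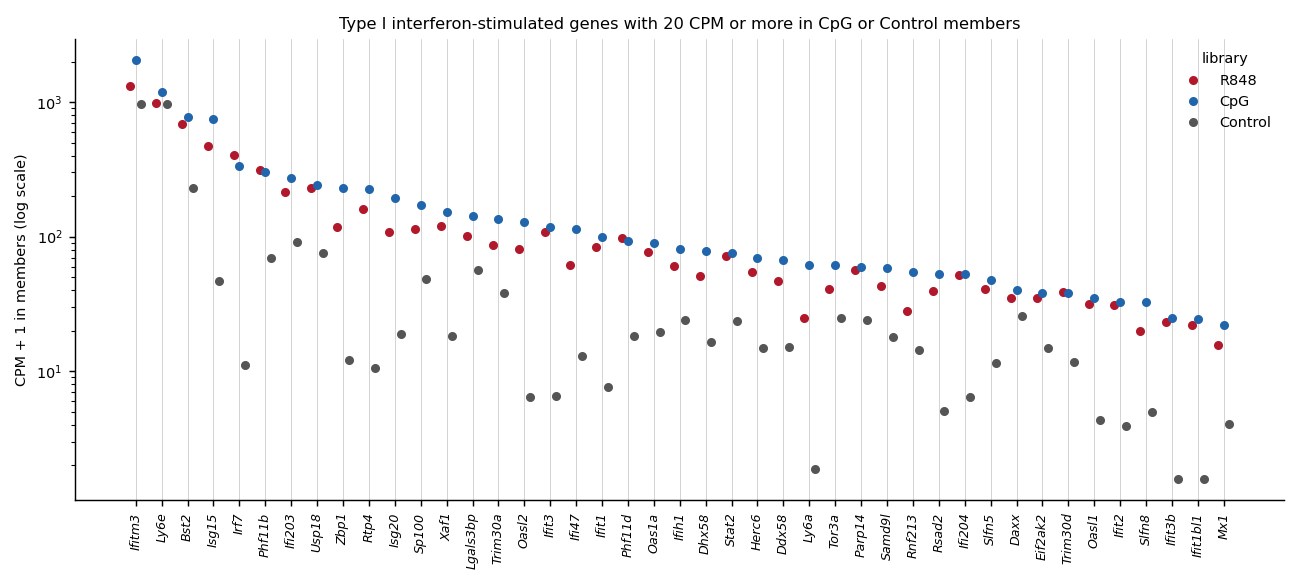
Levels of interferon-stimulated genes measured between CpG and Control members, as CPM with 1 added on a log axis, with a point each for R848, CpG and Control members. Control points lie below both treated points for nearly every gene, as for Irf7 at 401 (R848), 334 (CpG) and 10.1 CPM (Control).

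Promoters of these genes are shown because so many of the list were higher together. The search was for GAAA, then any 2 bases, then GAAA again, on either strand, the core of the interferon-stimulated response element, in the 250 bases before each gene's start in the RefSeq promoter table for GRCm38.p6. It was found in 978 of 32851 promoters, or 2.98%, and in 15 of the 35 promoters, or 42.9%, of the 28 matched genes among the 36 that were higher with both agonists. Over the whole interferon-stimulated list it was found in 19 of 47 promoters, or 40.4%. The list is made of known interferon targets, so the share describes the list, and a match is not a bound site. Irf7 and Oasl2 promoters held no match, which says only that these letters are not in this window. The 3 sequences below run 5′ to 3′ along the gene's strand, with the matches in capitals. Isg15 lies at chr4:156200819-156201068 on the minus strand, with 3 overlapping matches. Ifit3 lies at chr19:34583279-34583528 and Ifit1 at chr19:34640639-34640888, both on the plus strand, with 2 matches each that read on the opposite strand.
Isg15: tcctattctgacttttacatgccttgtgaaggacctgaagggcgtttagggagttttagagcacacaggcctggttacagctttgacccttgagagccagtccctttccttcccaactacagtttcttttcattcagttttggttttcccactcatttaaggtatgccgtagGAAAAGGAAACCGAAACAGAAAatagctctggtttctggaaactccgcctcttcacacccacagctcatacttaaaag
Ifit3: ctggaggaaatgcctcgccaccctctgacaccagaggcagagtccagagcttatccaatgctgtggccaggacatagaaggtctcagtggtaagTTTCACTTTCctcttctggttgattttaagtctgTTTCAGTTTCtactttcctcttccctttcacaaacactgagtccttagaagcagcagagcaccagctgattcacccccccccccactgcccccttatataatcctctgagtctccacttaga
Ifit1: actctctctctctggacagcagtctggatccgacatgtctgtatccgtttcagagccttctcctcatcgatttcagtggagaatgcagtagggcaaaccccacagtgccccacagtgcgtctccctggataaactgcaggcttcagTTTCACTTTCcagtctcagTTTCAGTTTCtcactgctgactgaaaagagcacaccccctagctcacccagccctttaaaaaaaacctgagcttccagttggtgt

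Chemokine genes were among those higher with both agonists. Ccl5, which attracts T cells and natural killer cells, stood at 1501 CPM with R848 (1443 to 1560), 1102 with CpG (1053 to 1152) and 67.4 in Control (61.4 to 73.9). Its spread over clusters was wide, at 272 to 3128 CPM with R848, 64.8 to 5168 CPM with CpG and 3.59 to 112 CPM in Control, so that the CpG and Control ranges overlapped. CpG cluster 4, led by Clec4a1, held 76% of the Ccl5 UMIs of CpG members, and without it the CpG difference was 2.15 on the log2 scale instead of 3.93. Without the clusters led by markers of another cell type the R848 difference was 3.36 instead of 4.38. Cxcl9 and Cxcl10, the interferon-induced ligands of CXCR3, stood at 96.3, 158 and 42.1 CPM and at 72.2, 114 and 13.7 CPM. They were not evenly spread over the members. R848 cluster 2 carried Cxcl10 at 205 CPM against 15.9 CPM in the other R848 members. CpG cluster 3 carried it at 503 against 27.7 CPM in the other CpG members, and Cxcl9 at 490 against 84.5 CPM. Control cluster 1 carried Cxcl10 at 31.1 against 7.98 CPM in the other Control members, and cluster 6 carried Cxcl9 at 488 against 13.99 CPM. Whether either gene was higher outside these clusters was not tested. Ccl6 was lower with both agonists, at 5.87, 4.54 and 31.2 CPM. Of the chemokine list, 4 of 8 measured genes were higher and 1 lower with R848, and 5 of 9 higher and 1 lower with CpG.

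Guanylate-binding proteins and related GTPases, which act on intracellular microbes, were higher for 9 of 14 genes with R848 and 10 of 14 with CpG, and with median-of-ratios scaling for 5 and 9. Gbp2 stood at 119, 243 and 18.6 CPM. Outside these lists, Cd1d1, which presents lipids to natural killer T cells, stood at 189, 116 and 13.2 CPM, and R848 cluster 4 carried it at 668 CPM against 71.0 CPM in the other R848 members. Without the clusters led by markers of another cell type its R848 difference was 1.85 on the log2 scale in place of 3.42. Ifi27l2a, an interferon-induced gene, stood at 1410.3, 1051 and 109 CPM. The co-stimulatory receptor gene Slamf1 stood at 38.8, 47.1 and 9.21 CPM, and Klrk1, which encodes NKG2D, at 108, 107 and 46.8 CPM. Aldh1a2, which makes retinoic acid, stood at 56.4, 46.0 and 19.9 CPM and was called higher with both agonists, as was Il7r at 55.8, 61.3 and 23.4 CPM. Of 20 measured cytokine receptor genes, 1 was higher and 4 lower with R848, and 1 higher and 1 lower with CpG. Mdk and Fabp5, already higher in members than in their neighbours, were called higher with both agonists too, Mdk at 251, 135 and 60.3 CPM and Fabp5 at 1077, 1250.5 and 523 CPM. Ly6d stood at 57.6, 0.568 and 1.90 CPM, and 81 of its 98 R848 UMIs came from 1 cell.

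Fewer genes were lower. Notch2, the receptor that intestinal cDC2 need for their development, stood at 45.8 CPM with R848, 44.3 with CpG and 135 in Control, which is 2.95-fold and 3.05-fold lower. Slc39a1, a zinc importer gene, stood at 51.7, 60.2 and 185 CPM, Kdm6b, a histone demethylase gene, at 45.8, 67.0 and 158 CPM, and Eif3f, a translation initiation factor gene, at 266, 179 and 602 CPM. Csf1r, the receptor for the macrophage growth factor CSF-1, stood at 21.1, 37.5 and 85.7 CPM, with 88.9% of its R848 UMIs in cluster 2. Il22ra2 stood at 135, 271 and 367 CPM, and was called lower with R848 but not with CpG; the R848 call ended with cells thinned to 3000 UMIs before the rule, at -0.71 in place of -1.41. Tgfbi, an extracellular matrix protein gene that TGF-β induces, stood at 16.4, 43.1 and 55.7 CPM, also called with R848 and not with CpG. Without the clusters led by markers of another cell type these R848 differences were wider. They were -3.92 for Csf1r in place of -1.79, -2.21 for Il22ra2 in place of -1.41, and -2.37 for Tgfbi in place of -1.50. That alternative leaves out R848 cluster 2, which held most of the R848 Csf1r UMIs. It keeps Control cluster 1, which carried Csf1r at 156 CPM and Tgfbi at 123 CPM. The wider values are thus partly set by which clusters were left out, and are no test of the differences. S100a10, a calcium-binding protein gene, stood at 74.6, 55.6 and 145 CPM and the tetraspanin gene Cd81 at 29.4, 20.4 and 57.8 CPM, both called lower with CpG and not with R848. Neither CpG call held under every alternative: S100a10 was at -0.52 in place of -1.31 without cells holding a lymphocyte UMI, and Cd81 at -0.33 in place of -1.30 without the clusters led by markers of another cell type, Control cluster 6 carrying Cd81 at 587 CPM against 24.4 CPM in the other Control members. Tgfb1 was called lower with both agonists, 2.63-fold and 2.51-fold. Apoe stood at 293, 354 and 797 CPM, beside 18194, 24943 and 29193 CPM in lysozyme- or C1q-high phagocytes of the same libraries. Nccrp1 stood at 24.1, 15.3 and 86.3 CPM, and Control cluster 8 held 84% of its Control UMIs. Without cells holding a lymphocyte UMI its difference from Control was -0.95 with R848 in place of -1.65 and -0.84 with CpG in place of -2.17, which ended both calls. Irf8 stood at 71.7, 43.1 and 147 CPM, with 55% of its Control UMIs in cluster 6, and its CpG call ended without the clusters led by other markers, at -0.89 in place of -1.66. The part of free RNA in Apoe was not tested.

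Counts for the antigen presentation and maturation lists are set beside all measured genes. Of these, 2.82% were called higher and 1.04% lower with R848, and 3.76% higher and 1.09% lower with CpG. The median log2 difference over all genes was 0.17 with R848 and 0.18 with CpG. Of 15 measured MHC class II genes, 0 were called in either direction with R848 and 1, Lgmn, was higher with CpG, with list medians of 0.02 and -0.11. The Lgmn call rested on the 37 cells of CpG cluster 4, at 585 CPM against 37.3 CPM in the other CpG members and 52.5 CPM in Control members, and without that cluster the log2 difference was -0.44. Of the MHC class I list 1 of 21 genes was higher with R848 and 4 of 20 with CpG, with medians of 0.73 and 0.67, among them the immunoproteasome gene Psmb8 with CpG. Maturation genes were higher for 4 of 25 with R848 (Socs2, Il4i1, Cacnb3 and Nudt17) and for 1 of 23 with CpG (Cd274), and with median-of-ratios scaling for 2 and 0. Co-stimulatory ligands were higher for 0 of 13 with R848 and 1 of 13 with CpG. These are counts among cells kept below a limit for Ccr7 and Fscn1, so cells of either library that had passed that limit are not among them. Each member also had to hold at least 40 UMIs of H2-Ab1 per 10000. Cells with low MHC class II are thus not among them, and the class II counts may be partly set by that choice, which was not tested. Of the transcription factor list 2 of 29 were lower with R848 (Nr4a1 and Egr1), and 1 of 26 was higher (Batf) and 1 lower (Irf8) with CpG. Of the immediate-early list 4 of 18 were lower and 1 higher with R848, and 0 of 19 lower and 2 higher with CpG.

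The proposed marker genes differed less between treated and Control members. Ltb stood at 921 CPM in R848 members, 819.6 in CpG members and 791 in Control members, Klrd1 at 439, 381 and 346 CPM, Pglyrp1 at 443, 359.9 and 366 CPM, and Ccr6 at 127, 97.6 and 86.4 CPM. None of them was called against Control. Cd7 was 0.631-fold (0.549 to 0.723) in CpG members against Control members and 0.975-fold (0.868 to 1.09) in R848 members against Control members.

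The Plet1-group-high cells gave values of the same kind against the same Control library. Of the interferon-stimulated list 31 of 38 measured genes were higher with R848 and 39 of 43 with CpG, with medians of 1.46 and 1.87, where 95 of 4756 genes overall were higher with R848 (2%) and 24 lower (0.505%), and 115 of 4792 higher with CpG (2.4%) and 43 lower (0.897%). Irf7 stood at 343, 300.4 and 8.77 CPM there, beside 401, 334 and 10.1 CPM in members. Ccl5 stood at 829, 187 and 19.0 CPM there, against 1501, 1102 and 67.4 CPM in members. The members' response and their neighbours' response were not tested against each other.

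Between the agonists, 68 genes were called in members. Called higher with R848 were 22 of 5126 genes (0.429%) and called lower 46 (0.897%). Without the clusters led by markers of another cell type, which leaves out R848 cells and no CpG cells, 207 genes were called, 61 higher and 146 lower. Of 44 interferon-stimulated genes 0 were higher and 1, Ly6a, was lower, with a list median of -0.34 on the log2 scale against -0.01 over all genes. Isg15 stood at 475 CPM with R848 and 752 with CpG, while Irf7 stood at 401 and 334 CPM. The serine protease inhibitor gene Serpinb6b stood at 144 CPM with R848 and 23.3 with CpG, and Serpinb9, an inhibitor of granzyme B, at 125 and 40.3 CPM. Lgals1, which encodes galectin-1, stood at 206 and 94.8 CPM, and Cdkn1a, the cell cycle inhibitor p21 gene, at 98.1 and 44.3 CPM. Without the clusters led by markers of another cell type, the difference was -0.19 for Serpinb6b in place of 2.40, 0.12 for Serpinb9 in place of 1.52, 0.06 for Zfp36l1 in place of 1.25, and -0.53 for Cdkn1a in place of 1.07.

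Several of the genes higher with CpG lay largely in 1 cluster of 37 cells. Clec4a1, an inhibitory lectin gene, stood at 10.6 CPM with R848 and 145 with CpG, Ms4a6d, a tetraspanning membrane gene, at 48.8 and 255 CPM, and Sirpb1b at 11.7 and 72.1 CPM. Ccl3 and Ccl4, which draw T cells and monocytes, stood at 20.6 and 95.9 CPM and at 15.9 and 143 CPM, and 87 of the 252 Ccl4 UMIs came from 1 CpG cell. With CpG cluster 4 left out, the differences were -0.70 for Clec4a1 in place of -3.27, -0.76 for Ms4a6d in place of -2.27, -1.11 for Sirpb1b in place of -2.20, -0.95 for Ccl4 in place of -2.83, and 0.13 for Ccl3 in place of -1.98. Without the clusters led by markers of another cell type, the differences were -3.65 for Clec4a1, -4.07 for Ms4a6d and -3.00 for Sirpb1b. For Ccl4 and Ccl3 they were then -2.51 and -2.70. Il12b, the p40 chain of IL-12, stood at 1.17 and 73.2 CPM, and 125 of its 129 CpG UMIs came from 1 cell. Without each gene's highest cell its difference was -0.38 in place of -3.66.

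**Figure D5:**
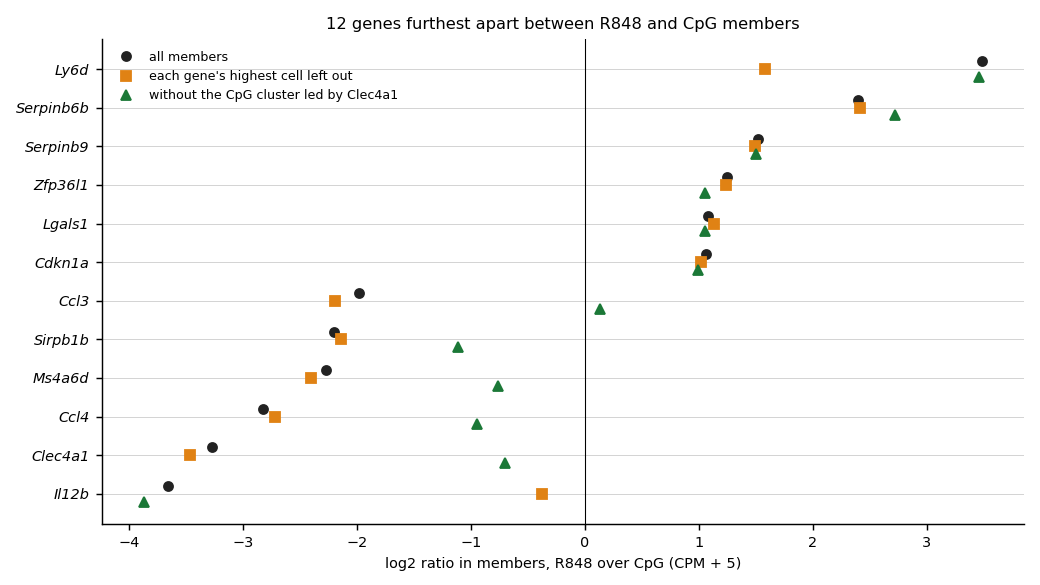
Ratio of R848 to CpG members, as log2 of CPM with 5 added, for the 12 genes named in this comparison: circles are all members, squares leave out the highest cell of each gene, and triangles leave out CpG cluster 4. The Ly6d and Il12b squares move most (1.58 and -0.38), and the Ccl3 triangle crosses 0 to 0.13.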

How the data were processed

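Peyer's patch phagocytes were measured with the 10x Genomics Chromium 3′ chemistry. Per the submitters' processing notes, the authors used Cell Ranger 2.0.0 and the mm10 build. Each deposited matrix gives the authors' UMI counts, not normalised, for 27998 genes in every cell. Other files hold barcodes and gene names only. The sources used here do not give the annotation release.

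Cells with at least 500 genes and at most 10% mitochondrial UMIs were kept. The members and the gene lists were chosen with earlier results of these data known. UMIs were summed per class and library and scaled to CPM. Log2 ratios used 5 CPM added, and a call needed a 2-fold ratio, 20 CPM and 20 UMIs in the higher sum, and an interval that left out 1; genes of the membership rule were left out. Intervals are at 95%: exact Poisson for levels, conditional binomial for ratios of counts, and Clopper-Pearson for shares. Per comparison, the rule named the 10 highest and 8 lowest called genes of at least 50 CPM (6 and 6 for R848 against CpG); other genes come from 24 gene lists and 17 marker lists. Likely doublets, scored from 2 simulated doublets per cell and 50 neighbours, were 209 (R848), 202 (CpG) and 225 (Control) cells, with 2, 1 and 14 members among them, and were kept except in an alternative. Members were clustered per library with 1500 variable genes, 20 principal components, 15 neighbours and Leiden resolution 0.6. Coordinates are from GENCODE M21 and promoters from RefSeq for GRCm38.p6. Only 2 of the alternatives took away free RNA, scaled from C1q genes that the rule limits, so it is no independent estimate and no result rests on it. Python 3.11.15, numpy 2.4.6, pandas 2.3.3, scipy 1.17.1, scikit-learn 1.9.0 and scanpy 1.11.5 were used, and the ratio script was tested on simulated data.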

Additional observations from a re-analysis of the deposited data

Results flagged for a closer look

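Lgmn, which encodes the lysosomal protease legumain, differed in direction between members and their neighbours. In members it stood at 126 CPM with CpG and 52.5 CPM in Control, a log2 ratio of 1.19 with 5 CPM added. In Plet1-group-high cells it stood at 14.4 CPM with CpG and 37.2 CPM in Control, a log2 ratio of -1.12. CpG cluster 4, of 37 cells, carried Lgmn at 585 CPM, and the other CpG members stood at 37.3 CPM, below the 52.5 CPM of Control members, as the Plet1-group-high cells did. Without that cluster the members' log2 ratio was -0.44, which is not called. With 1 library per group the difference between these ratios was not tested.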

How the results depend on the processing

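With 1 library per group no replicate could be left out, and depth limits genes below 20 CPM. No paired analysis was possible because each group is 1 library. Of 19 alternatives, 4 were chosen after seeing the data. Values for the member share are in the order R848, CpG and Control. The share was 7.72%, 7.78% and 31.0% with cells thinned to 3000 UMIs, 3.66%, 3.42% and 13.5% with no UMI of Cd209a, Plet1, Hpgd or Mmp12 allowed, 3.35%, 3.11% and 17.6% without cells holding a lymphocyte UMI, and 3.78%, 3.36% and 19.97% with a Ccr7 and Fscn1 limit of 5. In Control it was 19.6% with the raw limits scaled per 10000 UMIs. Counts of called genes were 193 for R848 against Control, 245 for CpG against Control, 68 for R848 against CpG, 170 against Cd209a-high cells and 76 against Control Plet1-group-high cells. With 20 CPM added they were 102, 142, 28, 72 and 34. With a minimum of 100 CPM they were 65, 95, 19, 41 and 25, and the interferon-stimulated genes higher were 13 with R848 and 18 with CpG. With no CPM minimum they were 261 against Cd209a-high cells and 132 against Plet1-group-high cells. Thinning to 3000 UMIs gave 30 for R848 against CpG, 299 against Cd209a-high cells and 45 against Plet1-group-high cells, and the limit of no UMI gave 143 against the last. Among the alternatives chosen after seeing the data, leaving out the clusters led by markers of another list (R848 clusters 2 and 4 and Control clusters 2, 5, 6 and 7) gave shares of 2.53% for R848 and 13.5% for Control, and counts of 307 for R848 against Control and 207 for R848 against CpG. Single genes turned in direction in 4 cases. Ly6d, R848 against Control, was -0.27 without cells holding a lymphocyte UMI. For R848 against CpG, Serpinb6b was -0.19 and Cdkn1a -0.53 without the clusters led by other markers, and Ccl3 was 0.13 without CpG cluster 4. The causes of these shifts were not tested beyond the construction of each alternative. Over the named genes, 1417 values kept their direction within the width of the reported value's interval and 175 moved further with no change of direction.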
